A study of Mus musculus with 1 sample.

Results

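The cells described here were 270 cells of mouse bone marrow that carried many transcripts of major histocompatibility complex class II genes and few of plasmacytoid, B cell, macrophage or late granulocyte genes. They were 270 of 10528 filtered cells (2.56%, exact Clopper-Pearson interval 2.27 to 2.88%) of 1 single-cell RNA-seq library. A cell was taken if it had at least 10 counts of H2-Aa and at least 10 of H2-Ab1, under 5 of Siglech, under 2 of Cd79a, under 5 of C1qa, and under 50 of Camp per 10000 of its counts. Those 6 transcripts chose the cells, so levels of the class II genes, and of genes that go with them, are given as a description. Of 348 cells that passed both class II minimums, 78 were left out, 49 of them for Siglech, 16 for C1qa, 12 for Camp and 3 for Cd79a. They are called the class II cells below.

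The library was a pool of sorted bone marrow cells captured on a BD Rhapsody cartridge. It held Lin- cKit+ progenitors and GMP-MoPs of an LPS-injected mouse and of a naive mouse, and cMoPs of a naive mouse. LPS comes from the outer wall of bacteria and sets off inflammation, and GMP-MoPs and cMoPs are sorted monocyte progenitors. Cells were marked with 5 hashtags before pooling, with 15000 cells loaded for A965 and A963 and 100 each for A961, A962 and A964. The labels name no hashtag's population, mouse or treatment, so hashtags are compared as hashtags. With 1 library and every hashtag unreplicated, no test was possible. The 95% intervals are exact, take in nothing but counting error, and treat each count as independent, although some may be repeated reads of a molecule.

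Conventional dendritic cells take up antigen and present peptides on class II molecules to helper T cells. They arise in the bone marrow from Flt3-bearing progenitors and form a pair of main lineages. cDC1 cells need Batf3 and Irf8 and cross-present antigen to killer T cells, while cDC2 cells depend more on Irf4 and Klf4 and, in mice, often carry Cd209a. Plasmacytoid dendritic cells, which make type I interferon, carry Siglech and need Tcf4.

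The surface chains of class II are encoded side by side on chromosome 17. Transcription of these genes is switched on by Ciita through conserved promoter boxes, and the Y box among them is an inverted CCAAT. Bases before the gene start are shown for 4 class II genes that were high in these cells, because the letters CTGATTGG, which hold the core of a Y box, lay close to the start in 3 of them. Sequences are from RefSeq (GRCm38.p6), 110 bases each, in the direction of the gene, 5′ to 3′. Capitals mark CTGATTGG, or for H2-DMb1 the shorter GATTGG that is contained in it.
H2-Aa (chr17:34287824-34287933, minus strand): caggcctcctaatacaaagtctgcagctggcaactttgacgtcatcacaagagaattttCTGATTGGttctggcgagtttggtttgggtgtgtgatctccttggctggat
H2-Eb1 (chr17:34305757-34305866, plus strand): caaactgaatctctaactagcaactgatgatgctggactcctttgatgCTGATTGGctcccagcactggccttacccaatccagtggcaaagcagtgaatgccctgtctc
H2-Oa (chr17:34092269-34092378, plus strand): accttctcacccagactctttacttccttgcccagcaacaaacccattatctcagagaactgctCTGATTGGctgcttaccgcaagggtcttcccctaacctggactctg
H2-DMb1 (chr17:34153081-34153190, plus strand): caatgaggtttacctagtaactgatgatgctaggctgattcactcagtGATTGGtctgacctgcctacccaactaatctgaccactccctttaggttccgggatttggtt
The motif began 51 bases before the start of H2-Aa, 62 before H2-Eb1, 46 before H2-Oa and, in its short form, 62 before H2-DMb1. In windows of 250 bases before to 50 after a start, CTGATTGG on either strand was in 1346 of 32851 promoters (4.10%) and GATTGG in 16.1%. Of 13 genes of class II presentation, 10 had a window, and 3 of these held CTGATTGG and 7 held GATTGG. A match is a description of letters and shows no binding.

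The class II cells were led by the class II genes the rule used and by genes of antigen presentation it did not use. H2-Eb1, a class II beta chain that was not in the rule, had 3188 CPM (the gene's part of all counts summed over a group of cells, on the usual scale) in class II cells, against 14.6 CPM in all other cells, a 219-fold difference (211 to 226). Cd74, the invariant chain that guards the peptide groove, had 7496 against 46.9 CPM. H2-Aa and H2-Ab1 themselves had 4775 and 4594 CPM, against 21.9 and 26.0 CPM in all other cells. The class II transactivator gene Ciita had 96.1 CPM against 0.651 CPM. In each cell thinned to 8800 counts, Ciita was found in 50.7% of class II cells (44.6 to 56.9%) and 0.123% of Car1 cells, which are red cell precursors with at least 5 counts of Car1 and serve here as background. Without thinning the share in class II cells was 62.2%.

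Genes that load and edit peptides were also higher in class II cells. H2-DMb1 and H2-DMa, which exchange peptides on class II, had 542 and 635 CPM in class II cells, against 29.0 and 90.0 CPM in other cells. H2-Oa and H2-Ob, which restrain that exchange, were 14.8-fold and 8.73-fold higher, at 136 and 64.3 CPM in class II cells. The endosomal enzymes Ctss, Ifi30 and Lgmn, which cut and reduce antigen, had 758, 941 and 57.7 CPM against 158, 213 and 10.6 CPM. All 13 genes of class II presentation were at least 2-fold higher in class II cells, where 6.62% of 6023 genes tested were called higher and 4.75% lower. A gene was tested at 20 CPM or more in either group, and called at 2-fold after 10 CPM was added to both. Their median log2 ratio was 2.92, beside 0.04 over all genes tested. Since the rule used 2 of the 13, and the others go with them, this count describes the choice of cells.

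Class II transcripts varied widely from cell to cell and moved together. H2-Eb1 ran from 0 to 252 counts per 10000 with a median of 24.7, and Cd74 from 4.17 to 283 with a median of 75.1. Across the 270 cells, which share 1 library and differ in depth, H2-Eb1 and Cd74 each had a Spearman rho of 0.902 with the sum of H2-Aa and H2-Ab1. The same value was 0.295 for Ciita, 0.310 for H2-DMa, 0.352 for H2-DMb1 and 0.0855 for Cst3. The chains of the surface molecule and the invariant chain were thus closely tied in rank, and peptide editors and the cystatin far less so. H2-DMa and H2-DMb1, at 635 and 542 CPM, had far fewer counts than H2-Eb1 at 3188 CPM, and Ciita fewer still. Low counts weaken a rank correlation, and their part here was not tested.

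Cells near the threshold were picked by a low count of H2-Aa or H2-Ab1, so their low class II is set by that choice. The 10 cells just inside, whose lower class II count was 10 to 12, had 406 CPM of H2-Eb1, and the 13 cells just outside, at 7 to 9 counts, had 400.5 CPM. Cst3 was at 10701 CPM just inside and 6546 CPM just outside, and Lyz2, a lysozyme of the myeloid lineage, at 1647 and 4696 CPM. Most class II cells, 260 of 270, were at 13 counts or more.

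Transcription factors of conventional dendritic cells set the class II cells apart beside class II itself. Batf3 had 171 CPM in class II cells and 1.37 CPM in other cells (124-fold, 110 to 140). It was found in 52.2% of thinned class II cells and 0.123% of Car1 cells, and without thinning in 62.6% of class II cells. Id2, which blocks the plasmacytoid programme, had 813 against 91.9 CPM, and Irf8 1130 against 356 CPM. Irf4 was low, at 17.3 CPM against 0.607 CPM, and Zbtb46, a factor of the conventional lineage, was at 12.3 CPM against 1.54 CPM and in 7.78% of thinned cells (15.6% without thinning). Car1 cells held Zbtb46 in 6.74%.

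Other genes that stood highest were of several kinds. Cst3, a protease inhibitor abundant in dendritic cells, had 9775 against 1149 CPM and was found in every class II cell. Ckb, the brain-type creatine kinase, had 235 against 4.81 CPM (48.8-fold), and Slamf7, a surface receptor of the SLAM family, was 100.3-fold higher at 171 CPM. Plbd1 had 613 against 56.5 CPM, Aif1, an actin-binding protein of myeloid cells, 276 against 24.7 CPM, and Rnase6 561 against 68.1 CPM. Itgb7, an integrin beta chain of gut homing, had 331 against 47.2 CPM. Ifi205 and Ifi211, members of 1 family of DNA sensors among which reads may be shared, had 216 and 169 CPM against 7.26 and 17.7 CPM. Crip1, Ms4a4c and Ptms were between 6.49-fold and 7.68-fold higher.

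Of the 5 marker genes that name the cells, Itgax and Cd209a were found in a minority. Itgax, which encodes CD11c, had 42.8 CPM in class II cells and 5.19 CPM in other cells, and was found in 21.1% of thinned class II cells and 27.8% without thinning. Cd209a, a C-type lectin, had 147 against 3.31 CPM and was found in 24.1% of thinned class II cells (27.0% without thinning) and 0.245% of Car1 cells. Each marker was at least 2-fold higher in class II cells, as the label of the cells requires. Kit, the receptor used in the sort, was at 36.2 against 17.8 CPM and in 20.4% of thinned class II cells, and Flt3 was at 59.5 against 18.4 CPM and in 30.7%.

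Set against all other cells, more of the cDC1 markers tested were higher than of the cDC2 markers. Of 12 cDC1 genes tested, 11 were higher in class II cells, with a median log2 ratio of 1.93. They included Xcr1, the receptor for the chemokine XCL1, at 23.5 against 2.04 CPM, Clec9a, a receptor for dead cells, at 67.9 against 4.63 CPM, and Rab7b and Naaa at 125 and 244 CPM against 9.63 and 28.4 CPM. Itgae, which marks mature tissue cDC1, was at 0.199 CPM. Of 12 cDC2 genes tested, 7 were higher and 1 lower, with a median of 1.30. Ccr2 had 473 against 123 CPM, and Clec10a 49.0 against 10.7 CPM, while Sirpa, a defining cDC2 receptor, was at 40.0 against 41.9 CPM and Mgl2 at 4.98 against 17.1 CPM. Of 15 genes of activated or migrating dendritic cells in the table, 2 reached 20 CPM. Cd83 was called higher, at 20.5 against 0.216 CPM, and Tmem123 was at 73.9 against 52.5 CPM. Summed, the list had 173 CPM in class II cells and 81.5 CPM in other cells, with Ccr7, the receptor that guides cells to lymph nodes, at 7.17 CPM, Fscn1 at 1.39 CPM, and Ccl17 with no count.

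Toll-like receptors of antigen-presenting cells were at low levels. Tlr3, the sensor of double-stranded RNA, was at 19.5 CPM in class II cells against 0.547 CPM in other cells, and Tlr11, the sensor of parasite profilin, at 9.95 against 0.115 CPM. Among chemokines and their receptors, 7 of 10 genes tested were higher and 1, Cxcr2, was lower. Ccl6 had 396 against 64.1 CPM, and Cxcl16 22.1 against 0.516 CPM. Of division genes, none of 12 of G2 and mitosis was called either way, and 1 of 11 of S phase, Mcm6, was lower.

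Transcripts of the neutrophil and erythroid lineages were low but not absent. All 13 neutrophil genes tested were lower in class II cells, and all 9 erythroid genes. Camp, which the rule used, had 428 against 15245 CPM, and Ngp, a neutrophil granule protein, 291 against 12101 CPM (41.5-fold lower). Per thinned cell, the neutrophil list summed to 13 to 312 counts in class II cells with a median of 38, and to a median of 35 in Car1 cells, with Mmp9 at 0 in class II cells. The erythroid list summed to 0 to 250 counts with a median of 1, with Alas2 at 0. Elane was in 33.3% of thinned class II cells and 30.8% of Car1 cells, at median depths of 16245 and 40739.5 counts. In 10 class II cells a foreign list was high, with 2 at 50 or more erythroid counts and 8 at 150 or more neutrophil counts of 8800. Scrublet called 3 class II cells doublets, of 223 calls (2.12%) in the library. Of 11 monocyte genes tested, 7 were higher and 3 lower in class II cells, with a median log2 ratio of 1.44. Of 7 nonclassical monocyte genes 4 were higher, and of 10 plasmacytoid genes 3 were higher and 2 lower. Over all genes tested, 6.62% were higher and 4.75% lower. Summed, the monocyte list had 6688 CPM in class II cells and 9464 CPM in other cells.

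**Figure D1:**
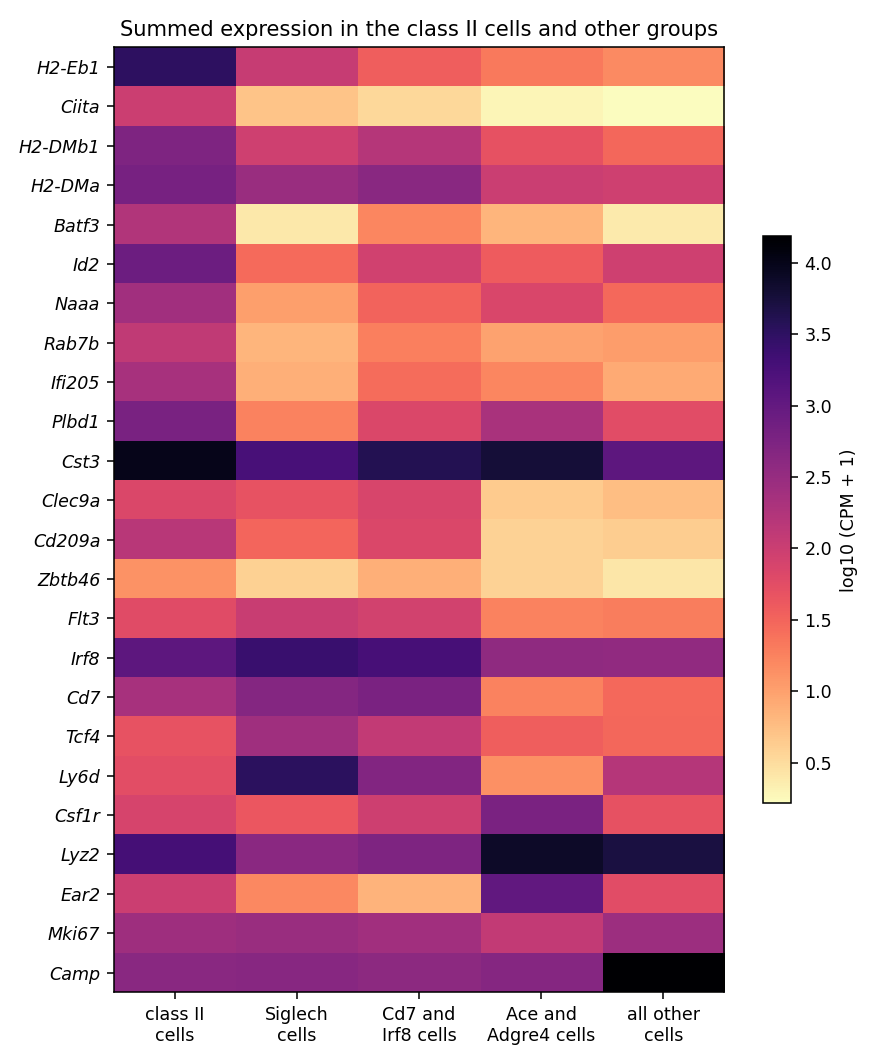
Summed expression, as log10 of CPM plus 1, of 24 genes (vertical axis) in the class II cells, in 3 other groups of cells and in all other cells (horizontal axis). Batf3 stands at 171 CPM in the class II cells and at 15.8 CPM or less elsewhere, while Irf8 is lighter in the class II cells, at 1130 CPM, than in the Siglech group, at 2493 CPM.

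Of the nearest cell groups, those with Siglech or with Cd7 shared factors and receptors with the class II cells, and had little class II. Outside the Siglech group, low class II is set largely by the rule, since cells with much class II were taken as class II cells. The Siglech group had no limit on class II. These groups were 537 cells with at least 5 counts of Siglech, 177 cells with at least 5 of both Cd7 and Irf8, and 102 cells with at least 3 of both Ace and Adgre4, which mark nonclassical monocytes. H2-Eb1 had 3188 CPM in class II cells, 109 CPM in Siglech cells, 35.1 CPM in Cd7 and Irf8 cells and 20.2 CPM in Ace and Adgre4 cells. Batf3 had 171 CPM in class II cells and 1.45, 15.8 and 5.77 CPM in the others, in the same order. Id2 had 813 CPM in class II cells and 27.6, 88.3 and 38.5 CPM in the others. These cells were picked by count thresholds on a few genes, so the levels are set side by side with no test.

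Several genes of dendritic cells were as high or higher in a neighbouring group. Clec9a had 67.9 CPM in class II cells, 46.8 CPM in Siglech cells and 72.0 CPM in Cd7 and Irf8 cells. Irf8 was lower in class II cells, at 1130 CPM, than in the Siglech cells, at 2493 CPM. Flt3 was at 59.5 CPM in class II cells, 104 CPM in Siglech cells and 85.3 CPM in Cd7 and Irf8 cells. The plasmacytoid factor Tcf4 was at 47.2 CPM in class II cells and 255 CPM in Siglech cells. Csf1r, the receptor for the monocyte growth factor, was at 75.2 CPM in class II cells and 575 CPM in Ace and Adgre4 cells, and the monocyte genes Lyz2 and Ear2 had the same order. Per thinned cell, the cDC1 list summed to a median of 15.5 counts in class II cells, 28 in Siglech cells and 20 in Cd7 and Irf8 cells. In Ace and Adgre4 cells its median was 4, and in Car1 cells 11. The cDC2 list had medians of 12 in class II cells, 8 in Siglech cells, 12 in Cd7 and Irf8 cells and 23 in Ace and Adgre4 cells.

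Among themselves the class II cells fell into 5 sub-clusters of 41 to 72 cells, and each held cells of both A965 and A963. They were found on 1000 variable genes without Xist, Tsix and Y-linked, mitochondrial and ribosomal protein genes. Their leading genes are described, since the clustering used them. The number of clusters was 3 to 7 under other settings, so their borders are not firm. The hashtags' shares in them differed, but the A965 and A963 intervals overlapped for every sub-cluster. The cDC1-like sub-cluster held 16.6% of A965 class II cells (11.3 to 23.0%) and 30.9% of A963 class II cells (21.9 to 41.1%). The sub-cluster led by Cd209a held 21.3% (15.4 to 28.3%) and 12.4% (6.56 to 20.6%). The sub-cluster led by Apoe held 27.8% of A965 (21.2 to 35.2%) and 23.7% of A963 class II cells (15.7 to 33.4%).

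**Figure D2:**
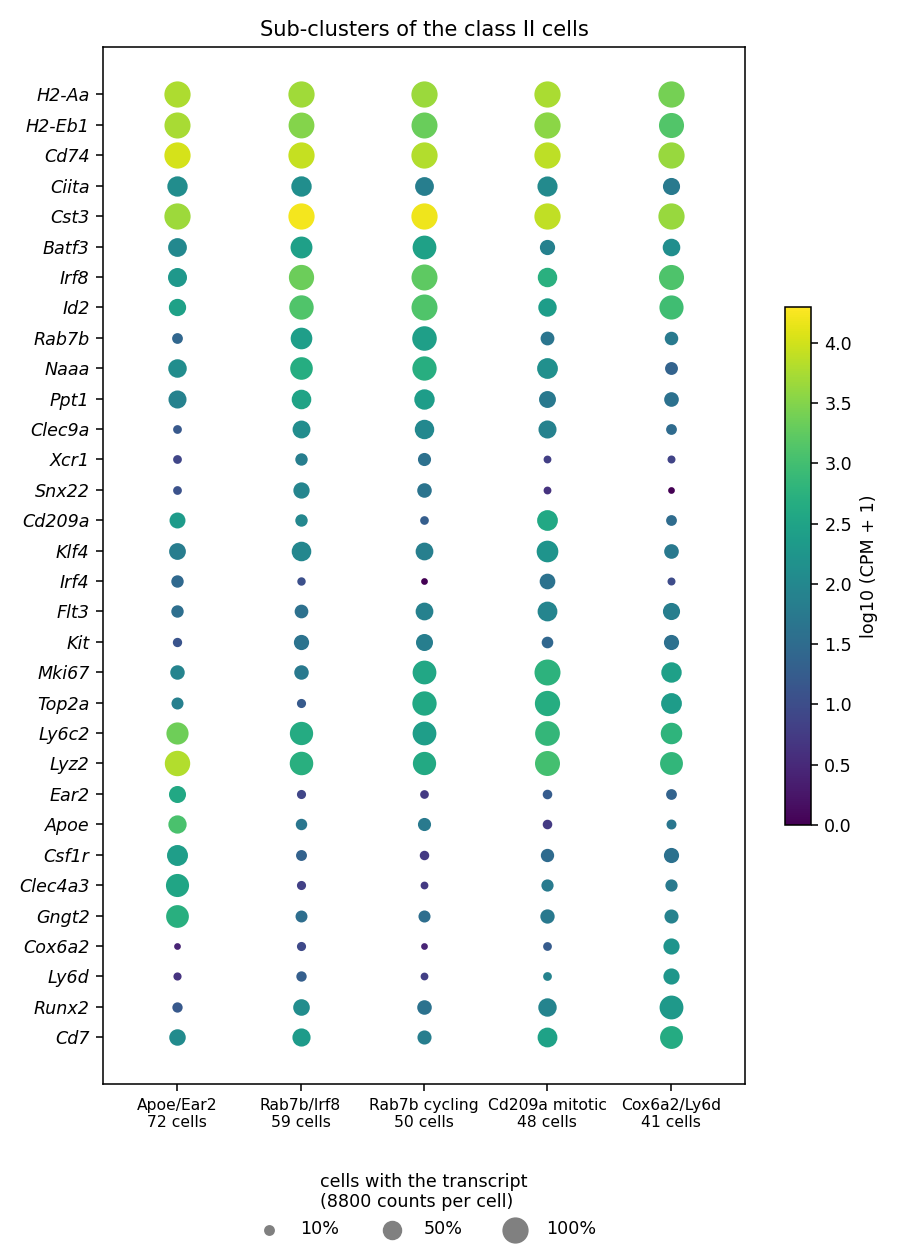
Levels of 32 genes (vertical axis) in the 5 sub-clusters (horizontal axis); colour is log10 of CPM plus 1 and dot area is the share of cells with the transcript after thinning to 8800 counts. Rab7b is found in 64.4% and 86.0% of cells of the sub-clusters named for it, and Ear2 in 36.1% of the first sub-cluster.

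A sub-cluster of 59 cells was cDC1-like. Of its 10 leading genes, Ppt1, Rab7b, Irf8 and Naaa were cDC1 markers, and Rtl8a, with 17.5% of its counts in 1 cell, headed them. Irf8 had 2144 CPM there and 917 CPM in other class II cells, and Cst3, another leading gene, had 16908 against 8279 CPM. Clec9a was at 123 CPM, Xcr1 at 65.5 CPM and Snx22, a sorting nexin, at 88.4 CPM. Mki67 and Top2a, which cells carry when they divide, were low, at 54.0 and 14.9 CPM.

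A second sub-cluster of 50 cells had much of the same profile together with division genes. Rab7b had 259 CPM there against 86.9 CPM in other class II cells, Naaa 487 against 175 CPM and Ifi205 413 against 160 CPM. Batf3 was at 289 CPM, Irf8 at 1717 CPM and Id2 at 1323 CPM, and Irf4 had no count. Mki67 was at 362 CPM and Top2a at 380 CPM. The globin genes headed its list, but 92.5% of its Hba-a1 counts lay in 1 cell, so it is called by Rab7b and the division genes.

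Cd209a led a sub-cluster of 48 cells, most of whose other leading genes act in mitosis. Cd209a had 378 CPM there against 94.8 CPM in other class II cells and was in 58.3% of its thinned cells. Cdc20 and Plk1, which drive cells through mitosis, had 229 and 130 CPM against 56.0 and 37.6 CPM. Irf4 and Klf4 were at 40.8 and 170 CPM, beside 10.3 and 97.6 CPM in the cDC1-like sub-cluster. Ccr2 was at 572 CPM and S100a4 at 1781 CPM, both also carried by monocytes.

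The largest sub-cluster, of 72 cells, had the highest class II and was led by Apoe. Its 10 leading genes held 3 of the neutrophil list and 1 each of the cDC2, monocyte and nonclassical monocyte lists, so it is given no cell type name. Per thinned cell, the cDC2 list summed to a median of 22.5 counts there and 18 in the sub-cluster led by Cd209a. The monocyte list summed to medians of 99 and 55.5 counts in the same order. In that order too, Cd209a was at 218 and 378 CPM, Klf4 at 64.1 and 170 CPM, and Irf4 at 27.4 and 40.8 CPM. Sirpa was at 100 and 54.7 CPM, and Clec10a at 95.7 and 80.5 CPM. How far genes also carried by monocytes raise the cDC2 sum was not tested. In the sub-cluster led by Apoe, H2-Eb1 was at 5466 CPM and Cd74 at 10339 CPM. Apoe, a lipid carrier, had 1156 CPM there against 39.7 CPM in other class II cells, Ear2, a ribonuclease of the eosinophil-associated family, 374 against 11.9 CPM, and Lyz2 6259 against 640 CPM. Sirpb1c and Cd300ld, surface receptors of myeloid cells, had 228 and 141 CPM against 15.6 and 5.45 CPM. Csf1r was at 248 CPM, Clec4a3 at 343 CPM and Gngt2 at 515 CPM, while Irf8 was at 195 CPM and Clec9a at 14.5 CPM. Elane, Ctsg, Mpo and Prtn3, proteases and an oxidase of granules, were also among its leading genes by CPM. A cell with 701 Elane and 629 Mpo counts gave 43.0% and 51.9% of its counts of these genes. Another cell held 549 and 335, and both cells were Scrublet calls. Without thinning, Elane was found in 43.1% of its cells and 47.5% of other class II cells, and Mpo in 43.1% and 49.5%. Prtn3 was found in 44.4% and 61.6%, and Ctsg in 26.4% and 29.3%. The median depth of this sub-cluster was the lowest, at 11658.5 counts, and 2 of its cells were Scrublet calls.

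The last sub-cluster, of 41 cells, had the least class II and held genes of early and plasmacytoid cells. H2-Eb1 was at 1337 CPM and Cd74 at 4272 CPM. Cox6a2, a respiratory chain subunit found in plasmacytoid dendritic cells, had 165 CPM there against 6.35 CPM in other class II cells, and Ly6d 181 against 24.9 CPM, with 28.1% of the Cox6a2 counts in 1 cell. Runx2 had 204 against 60.1 CPM, and Bcl2, which holds off cell death, 127 against 16.4 CPM. Myb and Cdk6, genes of dividing progenitors, had 103 and 102 CPM against 19.3 and 31.8 CPM. Irf8 was at 1238 CPM and Id2 at 966 CPM, while Zbtb46 and Snx22 had no count.

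Pairs of transcripts were also counted within cells. After thinning, Cd209a was found in 65 cells and Clec9a in 76, and 15 cells held both. Rab7b was in 9.23% of cells with Cd209a and 48.8% of cells without it, and Batf3 in 32.3% and 58.5%. Of cells with Clec9a, 59.2% held Rab7b, against 31.4% of cells without Clec9a. Ear2 was in 38 cells, of which 71.1% held Gngt2, another gene of nonclassical monocytes, against 25.9% of cells without Ear2. Batf3 was in 52.6% of cells with Ear2 and 52.2% of cells without it.

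The class II cells were a larger share of A965 than of A963. They were 169 of 5567 A965 cells (3.04%, 2.60 to 3.52%) and 97 of 4716 A963 cells (2.06%, 1.67 to 2.50%), a ratio of 1.48 (1.14 to 1.91). Class II cells had a median of 17539 counts in A965 and 14272 in A963, and all filtered cells 27205 and 20430.5. With every cell thinned to 8800 counts before the rule, the shares were 2.62% and 1.78%. A964 held 2 class II cells of 73, A962 held 2 of 104 and A961 none of 68, where 0 cells allow a share of up to 5.28%.

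The 4 class II cells of the small hashtags were unlike each other. In A964, a cell of 15095 counts had 134 counts of H2-Aa and 43 of Ear2, and a cell of 12709 counts had 25 of H2-Aa and 4 of Clec9a. In A962, a cell of 16542 counts had 209 counts of H2-Aa, 33 of Cd209a and 50 of Elane, and a cell of 13583 counts had 19 of H2-Aa and none of these others.

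Xist, which female cells make from their silenced X chromosome, had 14.5 CPM in A965 class II cells and 624 CPM in A963 class II cells. Mouse, sex, treatment and sorted population cannot be told apart between these hashtags. Between A965 and A963 class II cells, 18 of 5910 genes tested were at least 2-fold higher in A965 (0.305%) and 49 were lower (0.829%).

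**Figure D3:**
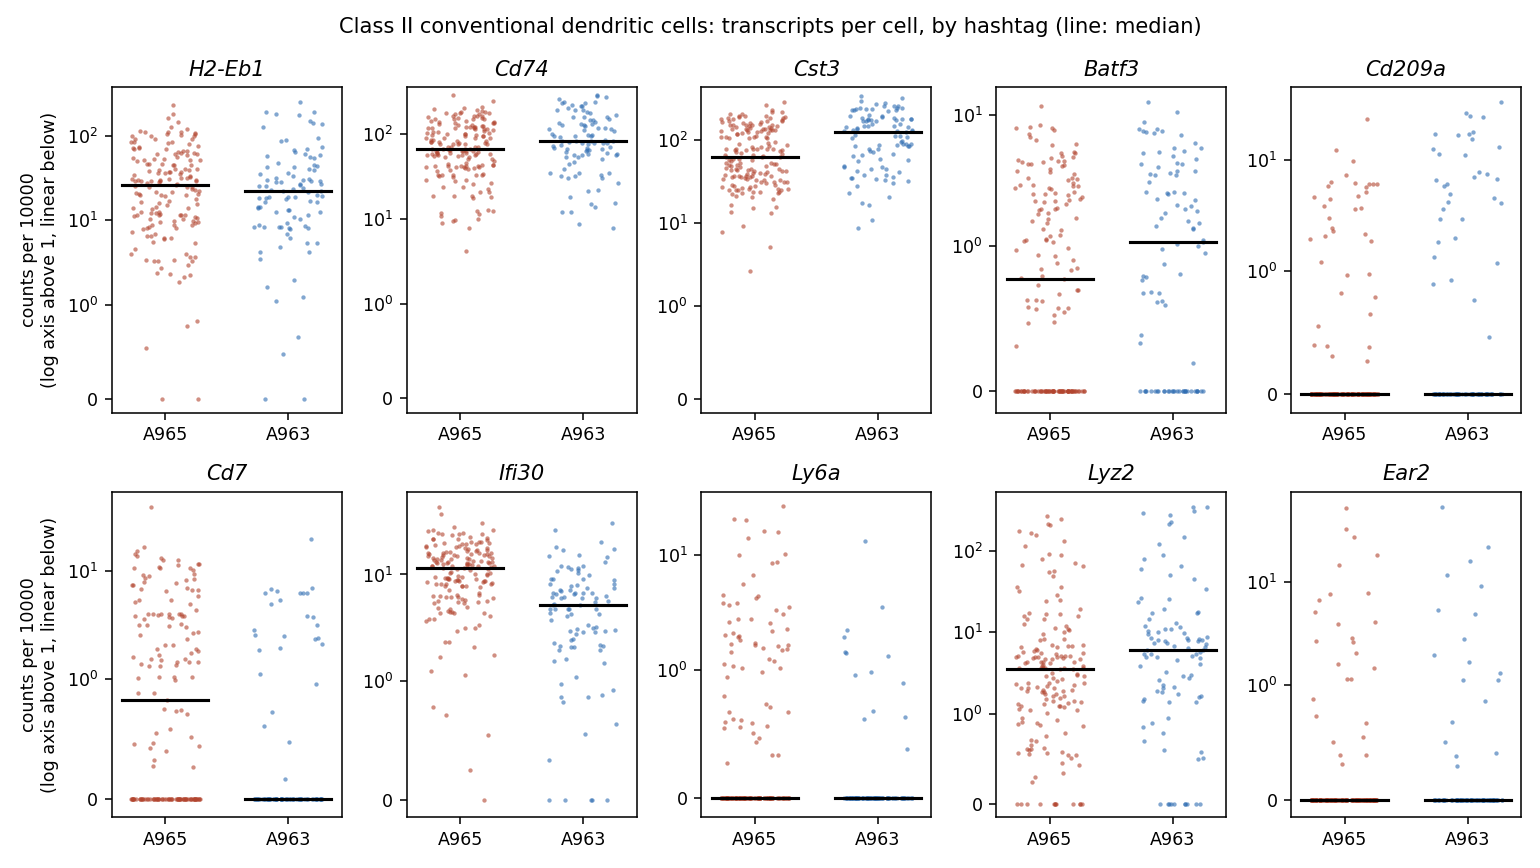
Counts per 10000 of 10 transcripts in each of 169 A965 and 97 A963 class II cells (vertical axis logarithmic above 1 and linear below); points are cells and lines medians. The hashtags overlap for every gene; the medians are 62.5 in A965 and 124 in A963 for Cst3, and 11.4 in A965 and 5.14 in A963 for Ifi30.

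Class II genes were at close levels in the hashtags. H2-Eb1 ran from 0 to 230 counts per 10000 in A965 cells with a median of 26.3, and from 0 to 252 in A963 cells with a median of 22.2. Its summed level was 3182 CPM in A965 and 3143 CPM in A963 cells, a ratio of 1.01 (0.979 to 1.05). Cd74 was at 7003 CPM in A965 cells and 8381 CPM in A963 cells (1.20-fold lower, 1.17 to 1.22). None of 13 genes of class II presentation was called either way, with a median log2 ratio of 0.02 beside -0.03 over all genes tested.

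Single genes of the pathway differed in either direction by less than 2-fold. Ifi30, the reductase of endosomes, was at 1114 CPM in A965 cells and 587 CPM in A963 cells (1.90-fold, 1.77 to 2.04). H2-Oa had 159 and 86.5 CPM (1.84-fold), H2-Ob 74.2 and 43.2 CPM (1.72-fold) and Ciita 105 and 75.7 CPM (1.39-fold, 1.13 to 1.72). H2-DMb1 ran the other way and was 1.23-fold lower in A965 (1.14 to 1.33), at 617 CPM in A963. In all other cells Ifi30 was likewise 1.83-fold higher in A965, while H2-Oa was 1.11-fold higher.

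Cd209a was lower in A965. Its counts per 10000 ran from 0 to 23.4 in A965 cells and from 0 to 33.5 in A963 cells, with a median of 0 in both. It was in 19.5% of thinned A965 cells (13.8 to 26.3%) and 32.0% of thinned A963 cells (22.9 to 42.2%), or 21.9% and 36.1% without thinning. Summed, it was at 76.7 CPM in A965 cells and 273 CPM in A963 cells (3.56-fold lower, 3.04 to 4.16). It was lower in A965 in each of the 5 sub-clusters, by 2.97-fold in the sub-cluster it led, at 272 and 809 CPM, and by 12.2-fold in the one led by Apoe, at 42.6 and 521 CPM. In the sub-cluster of Rab7b and division genes it was found in 3 cells, 1 of them an A963 cell of 60098 counts rich in globin. In the sub-cluster with the least class II it was found in 5 cells, so these ratios rest on few cells. Without the sub-cluster led by Apoe, Cd209a was 2.33-fold lower.

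Cd7, a surface protein of lymphoid and some dendritic cells, went the other way. It ran from 0 to 39.5 counts per 10000 in A965 cells with a median of 0.825, and from 0 to 19.6 in A963 cells with a median of 0. It was in 52.1% of thinned A965 cells and 24.7% of thinned A963 cells, or 59.2% and 27.8% without thinning. Summed, it was at 260 CPM in A965 cells and 104 CPM in A963 cells (2.49-fold higher, 2.11 to 2.94). It was higher in A965 in all 5 sub-clusters, by 1.68-fold to 3.95-fold. In all other cells it was at 27.1 CPM in A965 cells and 29.2 CPM in A963 cells. Whether the 2 ratios differ was not tested.

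Other genes higher in A965 were of mixed kinds. Ly6a, which encodes Sca-1, was at 126 CPM in A965 cells and 43.8 CPM in A963 cells (2.88-fold, 2.24 to 3.74), and 42.5% of its A963 counts lay in 1 cell. Reads may be shared between Ly6a and its relatives, and Ly6a2 was lower in A965, at 40.0 and 113 CPM. Without the sub-cluster led by Apoe, Ly6a was 1.94-fold higher. Zfas1, a noncoding RNA that hosts small nucleolar RNAs, had 337 and 154 CPM (2.19-fold), and Hspa8, a constitutive chaperone, 1764 and 956 CPM (1.85-fold, 1.75 to 1.95). Both were higher in A965 in all 5 sub-clusters, and in all other cells they had ratios of 1.07 and 0.955. Ifitm1, an interferon-induced membrane protein, had 195 and 88.9 CPM (2.19-fold), and in all other cells it was 3.41-fold higher in A965. Mki67 had 312 and 183 CPM, and Nop53, Snhg1, Igbp1, Scpep1, AW112010 and H2-Q7 were between 1.68-fold and 1.80-fold higher. Gngt2 was 1.75-fold higher, and 4.28-fold higher (2.69 to 7.19) without the sub-cluster led by Apoe, where it was most abundant.

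**Figure D4:**
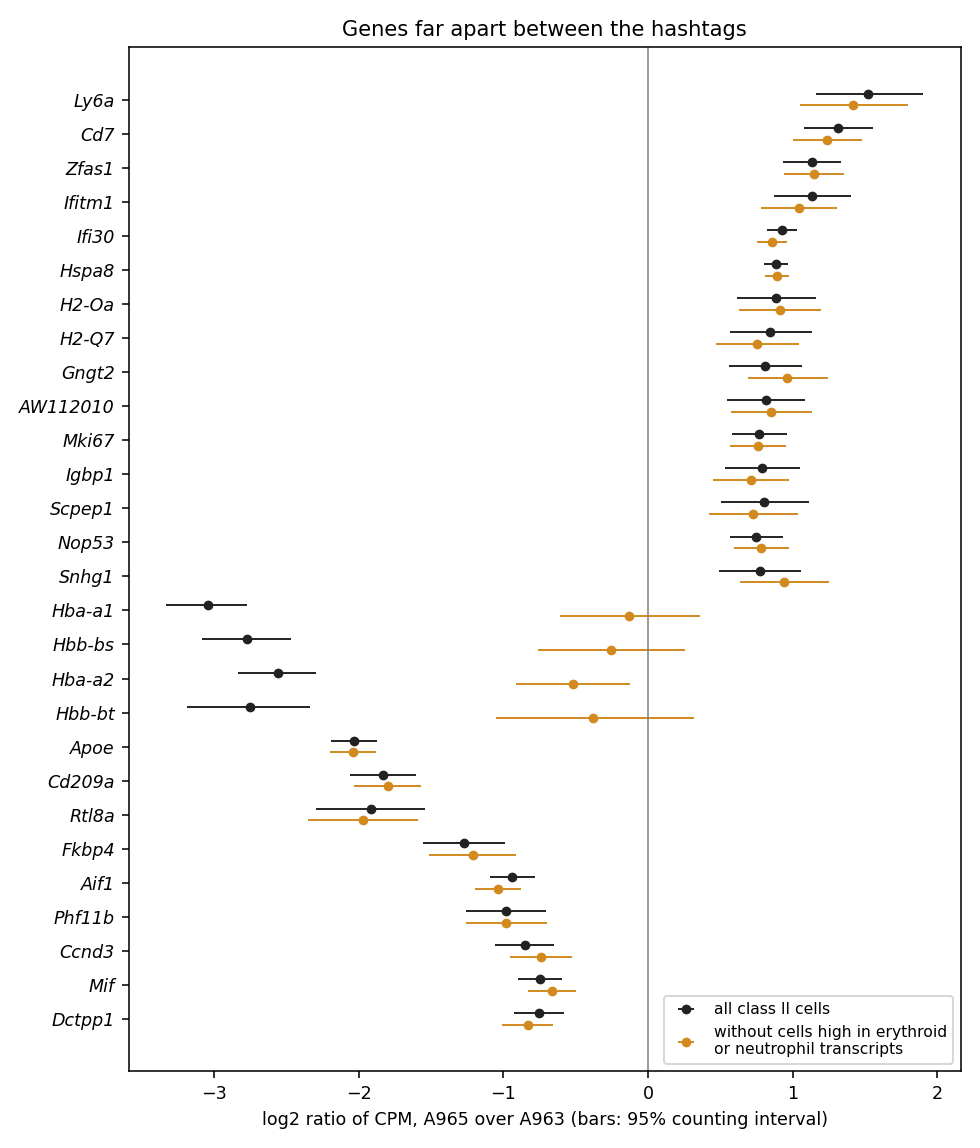
Log2 ratios of CPM, A965 over A963 (horizontal axis, with 95% counting intervals), for genes far apart between the hashtags (vertical axis), over all class II cells and without 10 cells high in erythroid or neutrophil transcripts. Hba-a1 moves to a ratio of 0.911 without those cells, while Cd209a, at 0.287, and Cd7, at 2.36, stay near their values.

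Genes lower in A965 included globins, most of whose A963 counts lay in 1 cell. Hba-a1 was at 40.3 CPM in A965 cells and 333 CPM in A963 cells, and 1 A963 cell of 60098 counts held 88.8% of the A963 counts. Without the 10 cells with many erythroid or neutrophil counts, the ratio of Hba-a1 was 0.911, and none of 6 erythroid genes tested was called. With all class II cells, 7 of 7 were called lower in A965. Apoe had 149 and 608 CPM (4.08-fold lower, 3.66 to 4.56), with 25.7% of the A963 counts in 1 cell. Without the sub-cluster it led, it was 2.18-fold lower, at 28.5 and 62.2 CPM.

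A few immune genes were also lower in A965. Isg15, a ubiquitin-like interferon product, was at 23.3 CPM in A965 cells and 60.6 CPM in A963 cells. It was among 2 genes called lower of 11 interferon-stimulated genes tested, with a median log2 ratio of -0.34. Ifitm3 had 1126 and 1478 CPM in class II cells, whereas in all other cells it was 2.40-fold higher in A965. Ccl6 had 337 and 516 CPM in class II cells and was 2.59-fold higher in A965 in all other cells. The difference of these ratios was not tested.

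Ccl4 and Ccl5, chemokines that draw T cells, had 1.21 and 25.8 CPM in A965 class II cells, against 46.2 and 89.5 CPM in A963 class II cells. Cd83, a marker of dendritic cell maturation, had 10.3 and 39.0 CPM, and was the gene called lower of 7 inflammatory genes tested, whose median log2 ratio was -0.50. Within sub-clusters, Cd83 was higher in A965 in 2 and lower in 3. Genes that tissue handling induces had a median log2 ratio of -0.56, with 1 of 5 tested, Atf3, called lower at 9.39 and 32.4 CPM, and their part in these differences was not tested. Aif1 had 214 and 409 CPM (1.91-fold lower), Fkbp4, a cochaperone of Hsp90, 58.5 and 141 CPM, and Phf11b 66.1 and 130 CPM. Macrophage genes were low, and all 3 of the list that were tested were called lower in A965, with a median log2 ratio of -1.26. They were C1qb at 9.70 and 37.2 CPM, C1qc at 3.64 and 27.6 CPM and Hmox1 at 5.76 and 22.2 CPM. Few cells carried them. Per thinned cell, the list summed to a median of 0 in both hashtags, and to at most 13 in A965 and 33 in A963. It reached 5 counts in 4.14% of A965 and 6.19% of A963 class II cells. C1qb was higher in A965 in 2 sub-clusters and lower in 3. The macrophage list summed to 56.7 CPM in A965 and 133 CPM in A963 class II cells, and its part in the other differences, Apoe included, was not tested.

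Lineage factors were close between the hashtags. Batf3 was at 161 CPM in A965 cells and 196 CPM in A963 cells, Irf8 1119 and 1184 CPM, Id2 798 and 861 CPM, and Klf4 89.4 and 86.5 CPM. Irf4 was 1.85-fold higher in A965 (1.09 to 3.31), at 10.8 CPM in A963. Of 13 cDC1 genes tested, 1 was called lower, Xcr1 at 13.9 and 43.2 CPM (3.10-fold lower), and the median log2 ratio was -0.32. Xcr1 reached 9.22 counts per 10000 in 1 A963 cell of 23872 counts, its highest level in any class II cell. The call of Xcr1 may depend on that cell, and whether Xcr1 would be called without it was not tested. Xcr1 was lower in A965 in each of the 5 sub-clusters, with ratios of up to 0.977. It was found in 5 cells of the sub-cluster led by Apoe and 4 of that led by Cd209a. In the sub-cluster with the least class II it was found in 3 cells. Clec9a had 65.8 and 72.1 CPM. Within sub-clusters, Clec9a and Irf8 were each higher in A965 in 4 of 5, while in the cDC1-like sub-cluster, which held more of the A963 cells, Clec9a had a ratio of 0.475. Of 12 cDC2 genes tested, Cd7 was called higher and Cd209a lower, with a median of 0.11. Cst3 had 8713 and 12059.5 CPM (1.38-fold lower), and Itgax 51.2 and 27.0 CPM (1.90-fold higher, 1.36 to 2.69). In division, none of 12 genes of G2 and mitosis and none of 11 of S phase was called, with medians of 0.09 and -0.16.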

How the data were processed

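The measured values were raw counts of each gene in each cell, as the authors deposited them. Per the labels, read 1 carried a molecular identifier. Whether molecules or reads were counted, the aligner and the annotation are not given in the sources used here. Values of 2 were 54.7% as many as values of 1. GRCm38, Seurat 4.2.0 and R 4.2.1 stand, with no role, in the submitters' processing notes. The table had 25661 genes and 10731 cells, with totals of 8822 to 140994. Hashtags were read from cell names. The 190 doublets named by the authors and 6 cells with no hashtag were not used. A filter at 500 genes and 20% mitochondrial counts removed 7 cells.

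Groups of cells were summed and expressed as CPM. Ratios have exact 95% counting intervals, and calls used 10 CPM added, a minimum of 20 CPM and 2-fold. Summed counts were 5023525 for the class II cells, with 3300107 in A965 and 1665489 in A963. Sub-clusters used scanpy 1.11.5 and leidenalg 0.10.2 with 20 components, 15 neighbours and resolution 0.5. No doublet call was removed. Named genes reached 100 CPM and 25% of cells in the higher group. They were the 25 highest and 10 lowest over other cells, the 15 furthest each way between hashtags, the 10 highest of each sub-cluster, and genes of 25 lists. Names of mitochondrial, ribosomal, Gm-number and Rik genes did not enter, and a few named genes are not reported here. The cells and lists were chosen with earlier results of these data known. Which list genes to print, the neighbouring groups and the pairs of genes were chosen after values were seen. Of the symbols, 85.4% were found in RefSeq. The alternatives in the closing section changed thresholds, scaling, the added CPM, doublet calls and clustering settings. The steps were tested on simulated counts.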

Additional observations from a re-analysis of the deposited data

Results flagged for a closer look

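Cells that the authors named as doublets entered no comparison, and 3 of 190 met every part of the rule (1.58%, 0.327 to 4.54%), beside 2.56% of cells with 1 hashtag. The 3 cells had a median of 58287 counts, against 16245 in class II cells. Summed, they held 1370 CPM of H2-Aa, 78.3 CPM of Batf3, 2995 CPM of Elane and 8547 CPM of Hba-a1. No cell without a hashtag, of 6, met the rule.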

How the results depend on the processing

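No paired analysis was possible because there was 1 library and no replicate. The ratio of the share in A965 to that in A963 was 1.47 to 1.56 under 5 alternatives. Over other cells, genes higher and lower in class II cells were 399 and 286, 331 and 333 with median-of-ratios scaling, and 562 and 397 with 1 CPM added. Between A965 and A963 class II cells, the genes higher in A965 were 18, and 76 with 1 CPM added, 28 with a class II minimum of 20 and 37 without the sub-cluster led by Apoe. The genes lower were 49, and 109 with 1 CPM added. Median log2 ratios moved to 0.0063 for shared dendritic cell genes and -0.19 for inflammatory genes with no minimum CPM, to -0.080 for neutrophil genes with a class II minimum of 20, and to -2.69 for erythroid genes with 1 CPM added. The cause was not tested. Sub-clusters were 3 at resolution 0.3, 7 at resolution 1 and 4 with 2000 variable genes. No named gene changed sign. All 35 genes named over other cells stayed on their side of 2-fold under the alternatives run for them. Leaving out the cell richest in a gene, a sub-cluster, or cells with foreign transcripts was chosen after seeing the data. Depth limits genes under about 20 CPM and the hashtags with 2 class II cells.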
